A study of Mus musculus with 8 samples.

Results

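The genes described here are the leukocyte surface antigens that carry a plain CD number as their mouse symbol, measured in cultured macrophages. They were found by symbol in a table of 6287 genes: 18 symbols consisted of Cd, a number and at most a few letters, after leaving out 9 that the selection rule excludes (Cd14, Cd36, Cd40, Cd44, Cd69, Cd80, Cd83, Cd86 and Cd200). Of the 18, 16 had a mean of at least 1 FPKM (fragments per kilobase of transcript and per unit of sequencing depth, a level scaled to transcript length and library size) and are the members: Cd9, Cd24a, Cd28, Cd47, Cd48, Cd52, Cd53, Cd82, Cd109, Cd151, Cd180, Cd274, Cd300a, Cd300lb, Cd300lf and Cd302. The other two, Cd33 at a mean of 0.986 FPKM and Cd38 at 0.258 FPKM, lay just under and well under the minimum and were not tested. The member just inside it was Cd300lf at 3.54 FPKM. The symbol rule used no difference between genotypes. How the 6287 genes were chosen is not stated in the sources used here, so antigens outside them were not analysed.

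RNA was taken from bone marrow derived macrophages, which are grown in culture from marrow precursors, of PAD4-/- mice and of WT mice, with 4 libraries per genotype. PAD4-/- mice carry a knockout of Padi4, whose product turns arginine residues of proteins into citrulline, and the WT libraries are the control group. The labels name no treatment, all titles carry the syllable con, which is not spelled out, and the sources used here give neither strain, age, the deleted part of Padi4 nor any pooling of animals. The design text calls the samples of a group independent, but no label ties a library to an animal, so the p-values reflect how these libraries vary, which may be partly technical.

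A CD number is given to a surface molecule of leukocytes once antibodies against it have been grouped together, so these proteins share a way of naming and not a pathway. In macrophages they fall into a few kinds. Some are held in the outer membrane leaflet by a glycolipid (GPI) anchor, and tetraspanins cross the membrane repeatedly and gather integrins and other receptors into patches. Others are receptors or ligands that restrain or prompt phagocytes and lymphocytes.

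Summed FPKM over all genes in the table ran from 381573 to 403848 per library, and sequencing depth is unknown. Padi4 expression is not used here, and the genotype labels therefore rest on the submitters alone. Knockout replicates 3 and 4 stood apart: along principal component 1 (70.6% of the variance) they lay at 17.7 and 16.1, knockout replicates 1 and 2 at -0.91 and 1.42, and WT libraries between -9.02 and -8.15. Of 10 macrophage-defining markers, 8 were in the table, all above the minimum. By the test used below 7 of 8 were higher, beside 21.1% of all genes tested. Their summed level was 19311 to 25196 FPKM in PAD4-/-, highest in replicates 3 and 4, and 17699 to 18317 FPKM in WT. Most of that sum was Lyz2, at 17621.5 to 23294.7 FPKM in PAD4-/- and 16269.5 to 16829.7 FPKM in WT. Of 20 interferon-inducible genes, 19 were tested, none at 0 and 4 higher, beside 21.1% higher over all genes tested. Their summed level was 723.5, 725.9, 1601 and 1448 FPKM in PAD4-/- replicates 1 to 4 against 565.3 to 694.5 FPKM in WT. Of 13 neutrophil markers only Lcn2 was in the table, at 0.31 to 0.52 FPKM in PAD4-/- and 0.52 to 1.13 FPKM in WT. The fibroblast markers Col3a1 and Pdgfra together gave 0.38 to 0.84 FPKM in PAD4-/- and 0.21 to 0.43 FPKM in WT. Of 8 dendritic cell markers, Irf8 alone of the 4 in the table passed the minimum and the 4 summed to 24.70 to 29.41 FPKM in PAD4-/- and 23.22 to 25.87 FPKM in WT. Of a list of 6 erythroid and megakaryocyte genes only Pf4 was in the table, at 2238 to 2941 FPKM in PAD4-/- and 2249 to 2476 FPKM in WT. Pf4 alone does not show whether such cells were present. The table held 4 osteoclast markers, of which 3 were tested and 2 were lower, beside 6.61% lower over all genes tested. The 4 summed to 18.29 to 21.08 FPKM in PAD4-/- and 25.15 to 27.57 FPKM in WT. Markers of B, T and NK, and mast cells were not analysed here. The part of any of these differences in the results below was not tested.

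**Figure D1:**
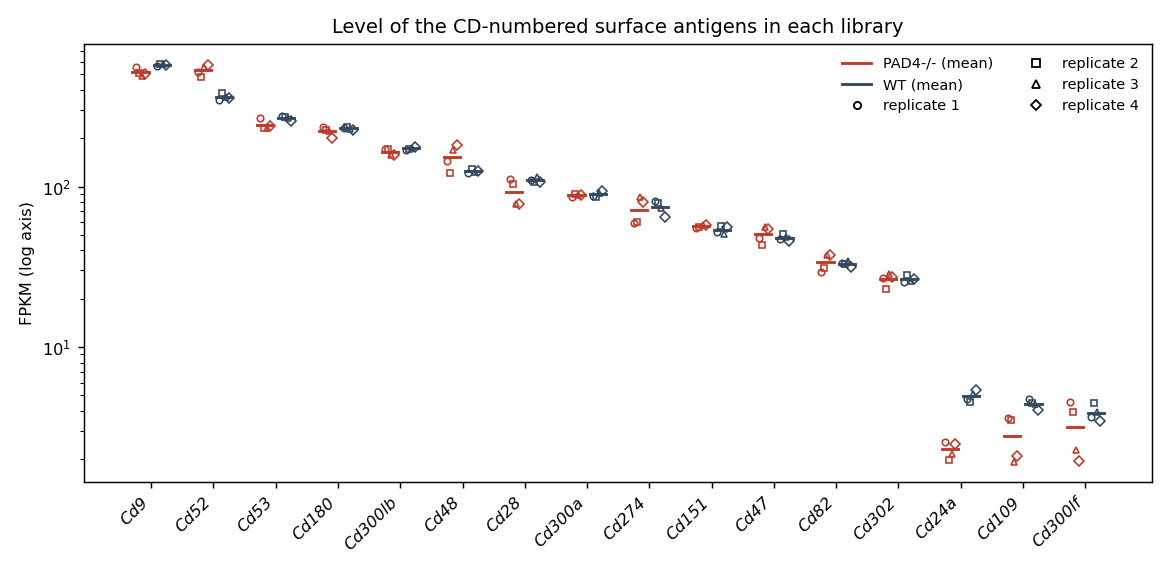
Level of each antigen in FPKM on a log axis, with PAD4-/- libraries in red on the left of each pair and WT libraries in dark blue on the right; symbols mark the replicate and lines the group mean. Cd52 lies higher and Cd9, Cd24a and Cd109 lie lower in every PAD4-/- library than in any WT library, and the lowest antigens are Cd24a, Cd109 and Cd300lf at 3.63, 3.61 and 3.54 FPKM on average.

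Levels differed by 2 orders of magnitude among the antigens. FPKM is scaled to transcript length, so that levels can be set side by side: 7 antigens averaged at least 100 FPKM over the 8 libraries, 6 lay under 100 and above 10 FPKM, and 3 lay under 10 FPKM. Cd9 was the most abundant at 542.8 FPKM, at rank 104 among the 5674 genes tested, followed by Cd52 at 446.9, Cd53 at 255.0, Cd180 at 225.5 and Cd300lb at 168.2 FPKM. Cd300lf, Cd109 and Cd24a closed the order at 3.54, 3.61 and 3.63 FPKM. Between those lay Cd48 (139.1 FPKM), Cd28 (100.9), Cd300a (88.86), Cd274 (73.00), Cd151 (55.11), Cd47 (49.08), Cd82 (33.44) and Cd302 (26.41). These means pool both genotypes, and the order of the lowest antigens differed between them. In WT, Cd24a (at least 4.58 FPKM) lay above Cd300lf (at most 4.50 FPKM) in every library. In PAD4-/-, Cd24a had the lower mean, 2.305 against 3.195 FPKM.

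PAD4-/- macrophages had more Cd52 RNA and less Cd24a, Cd109 and Cd9 RNA than WT macrophages, and the other 12 antigens did not pass the test. The test was limma on log2(FPKM + 1) over all 5674 genes with a mean of at least 1 FPKM, and a gene was called at a Benjamini-Hochberg adjusted p below 0.05. Of the 16 antigens 4 were called, 25.0%, beside 27.7% of all genes tested, so the share called was close to the background. By direction, 1 of 16 rose (6.25%) beside 21.1% of all genes, and 3 of 16 fell (18.8%) beside 6.61% of all genes. The groups did not overlap for 4 of 16 antigens, beside 31.1% of all genes. The median log2 fold change, PAD4-/- minus WT, was -0.07 over the antigens and 0.08 over all genes tested. In mean, 5 antigens were higher and 11 lower, beside 4008 and 1666 of all genes.

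These counts depended on scaling and on single libraries. With libraries rescaled to the same total, 2 antigens were higher and 3 lower, Cd48 being the addition (adjusted p = 0.0353). With median-of-ratios scaling, which divides out the typical difference, 1 was higher and 5 lower, and among all genes 514 were higher and 636 lower instead of 1195 and 375. The number of antigens lower was 5 without knockout replicate 1, where Cd53 and Cd28 joined (adjusted p = 0.00636 and 0.0177), and 1 without knockout replicate 4 or WT replicates 1, 2 or 3. The number higher was 2 without knockout replicate 2, where Cd48 joined (adjusted p = 0.00747). Without knockout replicates 3 and 4 together it was 1 higher and 3 lower, and those lower were Cd24a, Cd109 and Cd274.

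**Figure D2:**
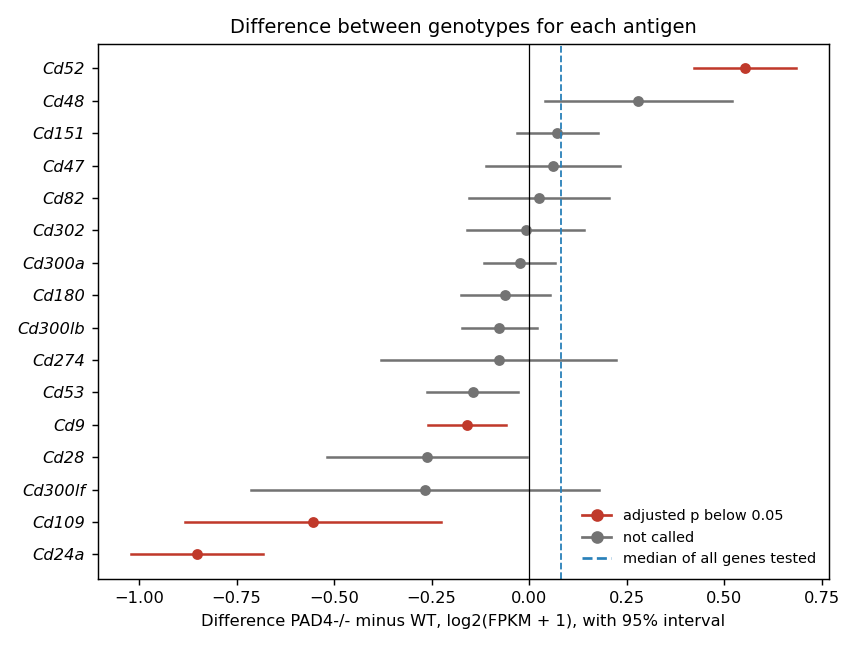
Difference between PAD4-/- and WT for each antigen on the log2(FPKM + 1) scale, with the 95% interval from limma, unadjusted; red marks an adjusted p below 0.05 and the dashed line is the median of all genes tested, 0.08. Cd52 lies at 0.55 and Cd24a at -0.85, at the opposite ends.

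Promoter sequences were available from RefSeq (GRCm38.p6) for 12 of the 16 antigens, not for Cd24a, Cd28, Cd52 and Cd109. The 250 bases before each annotated start were searched on both strands for the core of the interferon response element (GAAANNGAA, found in 7.1% of 32851 promoters), of the PU.1 site (GAGGAAG, 10.6%) and of the AP-1 site (TGANTCA, 6.7%). The 12 antigens had 18 promoters, and those of Cd47 overlap each other almost wholly, as do those of Cd180. For Cd48, Cd274 and Cd300lf the start used lies inside the annotated span of the gene and not at its edge. The interferon core was found in 3 of the 18, of Cd9, Cd274 and Cd300lf. The PU.1 core was found in 3 of the 18, of Cd82, Cd300a and Cd300lf, and the AP-1 core in none. A match is a description of the letters and not a site shown to be bound. The 3 promoters with the interferon core are shown. Cd48 is shown as an antigen without that core that was high in knockout replicates 3 and 4, where interferon-inducible genes were high. Other antigens without it, among them Cd47 and Cd82, were also above the WT mean there. The promoters shown were chosen after these values were seen, and any link of the core to the levels was not tested. Sequences run 5′ to 3′ on the gene's strand and end at the base before the start, with matches in capitals (the reverse complement where the match is on the other strand).

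Cd9 (chr6:125494761-125495010, minus strand): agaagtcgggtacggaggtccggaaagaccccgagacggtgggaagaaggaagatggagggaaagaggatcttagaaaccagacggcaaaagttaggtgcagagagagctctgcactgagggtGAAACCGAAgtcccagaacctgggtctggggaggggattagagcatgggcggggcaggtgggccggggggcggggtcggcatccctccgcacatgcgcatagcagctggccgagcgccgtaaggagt
Cd274 (chr19:29367188-29367437, plus strand): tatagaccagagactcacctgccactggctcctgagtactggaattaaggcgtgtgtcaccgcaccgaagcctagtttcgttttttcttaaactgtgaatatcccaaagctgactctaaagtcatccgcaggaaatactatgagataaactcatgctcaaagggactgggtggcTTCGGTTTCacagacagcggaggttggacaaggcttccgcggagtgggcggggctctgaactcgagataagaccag
Cd300lf (chr11:115133993-115134242, minus strand): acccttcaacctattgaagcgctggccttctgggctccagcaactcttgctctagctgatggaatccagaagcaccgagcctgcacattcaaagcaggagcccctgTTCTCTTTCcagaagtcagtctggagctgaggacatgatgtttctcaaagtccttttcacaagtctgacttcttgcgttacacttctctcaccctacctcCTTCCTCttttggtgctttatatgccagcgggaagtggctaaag
Cd48 (chr1:171681742-171681991, plus strand): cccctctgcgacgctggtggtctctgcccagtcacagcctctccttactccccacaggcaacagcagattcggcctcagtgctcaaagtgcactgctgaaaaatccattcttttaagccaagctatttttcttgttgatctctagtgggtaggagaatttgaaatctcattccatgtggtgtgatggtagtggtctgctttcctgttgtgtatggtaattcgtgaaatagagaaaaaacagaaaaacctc

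In Cd9 the core lies at positions -127 to -119 relative to the start, in Cd274 at -76 to -68 on the other strand, and in Cd300lf at -144 to -136 on the other strand, with a PU.1 core at -44 to -38. In knockout replicates 3 and 4, the difference from the WT mean on the log2(FPKM + 1) scale was 0.22 and 0.11 for Cd274, -0.23 and -0.19 for Cd9 and -0.57 and -0.72 for Cd300lf. For Cd48, with none of the cores, it was 0.43 and 0.53.

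Among the 4 glycolipid-anchored antigens, Cd24a and Cd109 fell, Cd52 rose and Cd48 was not called. Cd24a, a small heavily glycosylated protein that is read by Siglec receptors and is common on immature blood cells, had 2.57, 1.98, 2.17 and 2.50 FPKM in PAD4-/- replicates 1 to 4, against 4.75, 4.58, 5.08 and 5.42 FPKM in WT. All 4 PAD4-/- libraries were low, and the groups were far apart. Cd24a fell to a mean of 2.31 ± 0.278 FPKM in PAD4-/- against 4.96 ± 0.372 FPKM in WT (SD, n = 4 each), a ratio of 0.465, with a log2 fold change of -0.85 (SE 0.076, adjusted p = 0.000214). It was called in each of the 19 alternatives that tested it, with adjusted p from 2.21e-05 to 0.00244. Without knockout replicates 3 and 4 its log2 fold change was -0.87. At a few FPKM the log2(FPKM + 1) scale understates its change. Cd24a lies on chromosome 10 (43579169 to 43584265, GRCm38.p6), and 259 bases of its transcript match a second annotated transcript, Gm15352, at 92.3% identity, so reads from that stretch may have been shared out between them.

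Cd52, a very short peptide whose bulk is sugar and which in people is the target of a lymphocyte-depleting antibody, was the antigen that rose. It had 517.7, 482.9, 554.8 and 572.9 FPKM in PAD4-/- replicates 1 to 4, against 346.5, 383.8, 360.7 and 355.8 FPKM in WT. Every PAD4-/- library lay above every WT library by a wide margin, and replicates 3 and 4 lay above replicates 1 and 2. The difference from the WT mean on the log2(FPKM + 1) scale was 0.52, 0.42, 0.62 and 0.66 in PAD4-/- replicates 1 to 4. The mean was 532.1 ± 40.0 FPKM in PAD4-/- and 361.7 ± 15.9 FPKM in WT (SD, n = 4 each), a ratio of 1.47, with a log2 fold change of 0.55 (SE 0.058, adjusted p = 0.000618). It was called in all 20 alternatives, and its log2 fold change was 0.47 without knockout replicates 3 and 4. Cd52 (134093538 to 134095073) is the only antigen on chromosome 4, where Padi4 also lies, 6.65 Mb away. Of 93 genes tested within 10 Mb of Padi4, 20 were higher (21.5%) and 3 lower (3.23%), beside 21.1% and 6.61% of all genes. Whether inherited sequence around the Padi4 allele plays a part was not tested.

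Cd109, a member of the alpha-macroglobulin protease inhibitor family that binds TGF-beta, fell unevenly. It had 3.61, 3.49, 1.92 and 2.10 FPKM in PAD4-/- replicates 1 to 4, against 4.75, 4.51, 4.4 and 4.08 FPKM in WT. All PAD4-/- libraries lay below WT, and replicates 3 and 4 lay far below replicates 1 and 2. The mean was 2.78 ± 0.893 FPKM in PAD4-/- and 4.44 ± 0.278 FPKM in WT (SD, n = 4 each), a ratio of 0.627, with a log2 fold change of -0.55 (SE 0.147, adjusted p = 0.0224). Its call was lost without knockout replicate 4 (adjusted p = 0.0557) and without WT replicate 1, 2 or 3 (0.0648, 0.0604 and 0.0569), over a range of 0.000305 to 0.0648 in 19 alternatives. Without knockout replicates 3 and 4 the log2 fold change was -0.26, with adjusted p = 0.0339. The gene spans chromosome 9 from 78615546 to 78716260.

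Cd48, a SLAM family ligand that pairs with receptors on NK and T cells, had 144.1, 120.7, 168.8 and 180.2 FPKM in PAD4-/- replicates 1 to 4, against 122.1, 127.8, 123.8 and 125.4 FPKM in WT. Replicate 2 of the knockout lay below all WT libraries and replicates 3 and 4 far above them, so the groups overlapped. The mean was 153.4 ± 26.5 FPKM in PAD4-/- and 124.8 ± 2.41 FPKM in WT (SD, n = 4 each), and the log2 fold change of 0.28 (SE 0.107) was not called (adjusted p = 0.0763). Cd48 was 0.08 above WT on the log2 scale without knockout replicates 3 and 4 (adjusted p = 0.405). It sits within 116.6 kilobases of chromosome 1 together with 2 other SLAM genes. Slamf7 there fell to 97.7 ± 6.26 FPKM in PAD4-/- against 118 ± 7.99 FPKM in WT (ratio 0.831, adjusted p = 0.0143), and Ly9 had a ratio of 1.10 (adjusted p = 0.139). Of the SLAM family and its adaptors 4 genes were tested, 2 fell and none rose, beside 6.61% lower and 21.1% higher over all genes. The other that fell was Slamf8, at a ratio of 0.454 (adjusted p = 0.000692).

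Of the tetraspanins numbered in the CD series, Cd9, Cd53, Cd82 and Cd151 were analysed here. These 4 differed little between genotypes, and Cd9 was called. Cd9, which partners integrins and is known to restrain fusion of macrophages, had 554.3, 507.7, 487.9 and 502.6 FPKM in PAD4-/- replicates 1 to 4, against 560.6, 580.2, 579.0 and 570.0 FPKM in WT. The groups did not overlap, but replicate 1 of the knockout lay just under the lowest WT library. Cd9 fell to 513.1 ± 28.7 FPKM in PAD4-/- against 572.4 ± 9.09 FPKM in WT (SD, n = 4 each), a ratio of 0.896, with a log2 fold change of -0.16 (SE 0.045, adjusted p = 0.0277). The call was lost without any single library other than knockout replicates 1 and 2. Adjusted p was 0.0798 and 0.0620 without knockout replicates 3 and 4, and 0.0569, 0.0786, 0.0764 and 0.0546 without WT replicates 1 to 4, and 0.125 without knockout replicates 3 and 4 together. Cd9 lies on chromosome 6 (125460266 to 125494760), and 665 bases of a transcript match the pseudogene Cd9-ps at 91.1% identity.

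Cd53, a tetraspanin restricted to leukocytes, had 267.4, 232.6, 230.6 and 238.7 FPKM in PAD4-/- replicates 1 to 4, against 274.8, 271.4, 267.2 and 257.2 FPKM in WT. Replicate 1 of the knockout lay within the WT range and the other 3 lay under it. Its mean was 242.3 ± 17.1 FPKM in PAD4-/- and 267.6 ± 7.62 FPKM in WT (SD, n = 4 each), and it was not called (log2 fold change -0.14, SE 0.052, adjusted p = 0.0626), except without knockout replicate 1 as above, with median-of-ratios scaling (adjusted p = 0.0245) or with library weights. Cd151, a partner of laminin-binding integrins, averaged 56.5 ± 1.23 FPKM in PAD4-/- and 53.7 ± 2.92 FPKM in WT (adjusted p = 0.252). Cd82, whose loss in tumours accompanies spread, averaged 33.8 ± 4.33 FPKM in PAD4-/- and 33.1 ± 1.22 FPKM in WT (adjusted p = 0.834). The WT libraries of Cd82 ran from 31.40 to 34.26 FPKM. Knockout replicates 1 and 2 (29.22 and 31.06 FPKM) lay below that range and replicates 3 and 4 (37.58 and 37.46 FPKM) above it.

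Tetraspanins and relatives with other symbols were compared from a list. From a list of 27, 8 were tested, of which 5 fell and 1 rose, beside 6.61% lower and 21.1% higher over all genes, and the median log2 fold change was -0.14 beside 0.08 over all genes. Tm4sf19, an L6 family relative, fell to 4.38 ± 1.11 FPKM in PAD4-/- against 9.62 ± 0.997 FPKM in WT (adjusted p = 0.00263). Tspan5, which accompanies the protease ADAM10, fell to 5.15 ± 0.331 FPKM in PAD4-/- against 6.99 ± 0.410 FPKM in WT (adjusted p = 0.00392), and Tspan14 had a ratio of 0.913 (adjusted p = 0.0320). Tspan33 rose to 1.26 ± 0.225 FPKM in PAD4-/- against 0.778 ± 0.145 FPKM in WT (adjusted p = 0.0214). The number lower was 2 without knockout replicate 3 or WT replicates 1 or 2, and 3 without knockout replicate 2 or 4 or WT replicate 3 or 4. It was also 3 with libraries rescaled to the same total or without knockout replicates 3 and 4 together. Tspan33, with a mean of 1.02 FPKM, was no longer tested without knockout replicate 2, 3 or 4, since it then lay under the minimum, and it was not called without WT replicate 1 or 2 or with quantile normalization.

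**Figure D3:**
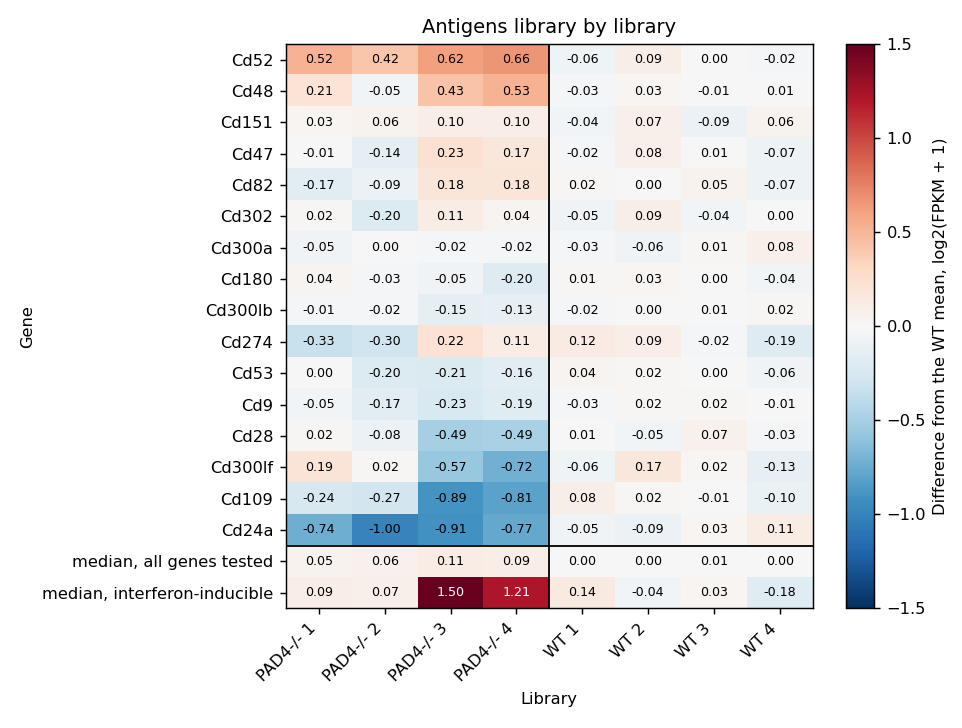
Each cell gives the difference of a library from the WT mean on the log2(FPKM + 1) scale, PAD4-/- libraries on the left and WT libraries on the right, antigens ordered by their difference between genotypes; the bottom rows are medians over all genes tested and over 19 interferon-inducible genes. Cd24a and Cd52 differ in all 4 PAD4-/- libraries. Several antigens, among them Cd28, Cd300lf, Cd48, Cd274, Cd47, Cd82 and Cd109, differ between PAD4-/- replicates 1 and 2 and replicates 3 and 4.

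Cd47 and Cd274, ligands that restrain phagocytes and T cells, did not pass the test. Cd47, the signal on healthy cells that tells phagocytes not to engulf them, averaged 50.3 ± 5.89 FPKM in PAD4-/- and 47.9 ± 2.13 FPKM in WT (SD, n = 4 each; log2 fold change 0.06, adjusted p = 0.556). Its 95% interval ran from 0.927 to 1.18 fold. Knockout replicates 3 and 4 (56.11 and 53.99 FPKM) lay above the WT range of 45.49 to 50.62 FPKM. Knockout replicate 2 (43.25 FPKM) lay below that range. Sirpa, the phagocyte receptor for Cd47, had a ratio of 1.08 (adjusted p = 0.0854).

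Cd274, the programmed death ligand that restrains T cells and is induced by interferons, had 58.9, 60.1, 86.5 and 80.1 FPKM in PAD4-/- replicates 1 to 4, against 81.0, 79.5, 73.1 and 64.9 FPKM in WT. Knockout replicates 1 and 2 lay below all WT libraries, and replicate 3 lay above all of them, with replicate 4 in the upper part of the WT range. With all libraries Cd274 was not called (mean 71.4 ± 14.0 FPKM in PAD4-/- and 74.6 ± 7.30 FPKM in WT, adjusted p = 0.671). Without knockout replicates 3 and 4 it was called lower, with a log2 fold change of -0.32 and adjusted p = 0.0197. The interferon-inducible genes had a median difference from the WT mean of 0.09 and 0.07 on the log2 scale in knockout replicates 1 and 2 and of 1.5 and 1.21 in replicates 3 and 4, and their part in the level of Cd274 was not tested. Pdcd1, the receptor for Cd274, was listed at 0 in all 8 libraries.

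The Cd300 receptors are paired: Cd300a and Cd300lf carry inhibitory tails, and Cd300lb signals through an activating adaptor. Cd300a, which binds phosphatidylserine on dying cells, averaged 88.1 ± 1.30 FPKM in PAD4-/- and 89.6 ± 3.66 FPKM in WT (SD, n = 4 each; adjusted p = 0.674). Cd300lb had 170.9, 170.4, 156.0 and 158.0 FPKM in PAD4-/- replicates 1 to 4, against 169.9, 172.3, 173.3 and 175.2 FPKM in WT. Knockout replicates 3 and 4 lay under the WT range and replicates 1 and 2 within it. Its ratio was 0.949 and it was not called (log2 fold change -0.08, SE 0.043, adjusted p = 0.193), but it was lower with median-of-ratios scaling (adjusted p = 0.0455).

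Cd300lf, which also serves as the entry receptor of mouse norovirus, had 4.58, 3.95, 2.29 and 1.96 FPKM in PAD4-/- replicates 1 to 4, against 3.66, 4.50, 3.94 and 3.46 FPKM in WT. The PAD4-/- libraries thus lay on both sides, replicate 1 above all WT libraries and replicates 3 and 4 below them. The difference was not called (log2 fold change -0.27, SE 0.196, adjusted p = 0.316), and Cd300lf was the antigen with the widest interval, 0.610 to 1.13 fold. The 3 genes lie within 246.2 kilobases of chromosome 11. Cd300a shares a stretch of 364 bases with Cd300c2 at 94.0% identity, and Cd300lf one of 349 bases with Cd300ld at 94.8%, so reads may have been divided among family members. The span of Cd300lf lies wholly within that of Rab37, and no source used here says whether strand was used in counting.

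Of the remaining receptors, Cd180 and Cd302 showed no call and Cd28 varied within the knockout. Cd180, a relative of Toll-like receptors that modulates the response of B cells and macrophages to lipopolysaccharide, had 236.4, 225.2, 221.5 and 200.9 FPKM in PAD4-/- replicates 1 to 4, against 232.5, 234.2, 229.6 and 224.3 FPKM in WT. The groups overlapped, with knockout replicate 4 lowest (ratio 0.960, adjusted p = 0.377). Cd302, an endocytic C-type lectin, averaged 26.4 ± 2.47 FPKM in PAD4-/- and 26.5 ± 1.26 FPKM in WT (adjusted p = 0.928).

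Cd28, best known as the co-stimulatory receptor of T cells, had 110.9, 103.2, 77.4 and 77.9 FPKM in PAD4-/- replicates 1 to 4, against 109.9, 106.0, 114.7 and 107.4 FPKM in WT. Knockout replicates 3 and 4 stood far below the other 6 libraries, and replicates 1 and 2 were close to WT. Its mean was 92.3 ± 17.3 FPKM in PAD4-/- and 109.5 ± 3.80 FPKM in WT (SD, n = 4 each), a log2 fold change of -0.26 (SE 0.113) that was not called (adjusted p = 0.108). Without knockout replicates 3 and 4 it was -0.03 (adjusted p = 0.678). In RNA from a whole culture, fewer cells that express a gene and less RNA per cell cannot be told apart, and since T cell markers were not analysed here, the cells that hold the Cd28 RNA were not determined.

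For 11 of the 12 antigens that were not called, the 95% interval of the difference lay within 1.5 fold in either direction on the log2(FPKM + 1) scale, Cd300lf being the exception. The unadjusted interval left out 0 for 3 of them, Cd53, Cd48 and Cd28. A missed threshold does not show that these levels were the same.

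**Figure D4:**
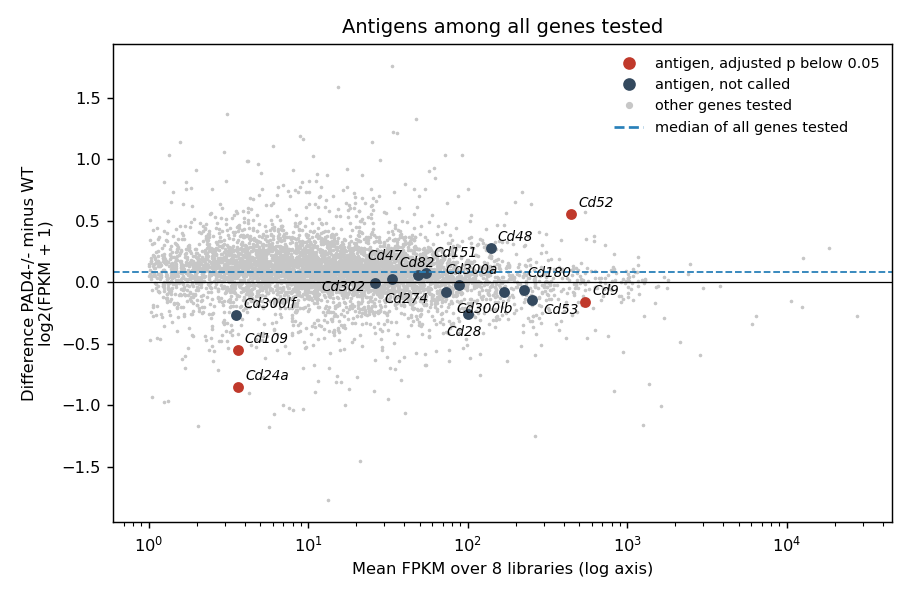
Mean FPKM over the 8 libraries on a log axis against the difference between PAD4-/- and WT on the log2(FPKM + 1) scale; large points are the 16 antigens, red where called, small points are the other genes tested and the dashed line is the median of all genes, 0.08. Among the antigens, Cd52 at 0.55 lies highest and Cd24a at -0.85 lowest.

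Known partners of CD-numbered proteins were also compared. Some listed genes, among them Ctss and Sema4d, are known for acting on or binding CD-numbered proteins outside the 16 antigens. The counts are therefore not those of partners of the 16 antigens alone. From a list of 29 ligands, partners and processing enzymes, 10 were tested, of which 2 rose and 2 fell. Over all genes 21.1% were higher and 6.61% lower. The median log2 fold change of the 10 was 0.04. Igsf8, which binds Cd9 directly, fell to 60.1 ± 3.68 FPKM in PAD4-/- against 67.5 ± 3.38 FPKM in WT (SD, n = 4 each; ratio 0.890, adjusted p = 0.0489). Its groups overlapped, with knockout replicate 3 (63.46 FPKM) above WT replicate 3 (62.67 FPKM). The lysosomal protease gene Ctss fell to a ratio of 0.714 (adjusted p = 0.00108). Adam17, a protease that sheds surface proteins, rose to 145.9 ± 13.7 FPKM in PAD4-/- against 119.8 ± 3.48 FPKM in WT (adjusted p = 0.0134), and Sema4d rose to a ratio of 1.12 (adjusted p = 0.0483). Of 14 Siglec and SIRP genes and their signalling partners 2 were tested and neither was called (Ptpn11 with adjusted p = 0.0618).

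Surface molecules that hold a CD number but carry another gene symbol, such as integrins, cytokine receptors and Fc receptors, were set beside the antigens. Of 69 tested, 19 rose and 13 fell, beside 21.1% higher and 6.61% lower over all genes. Some of these genes, among them Adam17, Sema4d and Slamf7, were also counted in the lists above, so the counts are not separate. The median log2 fold change was 0.10 beside 0.08 over all genes. The split was 14 higher and 16 lower with median-of-ratios scaling and 25 higher and 10 lower with libraries rescaled to the same total. Prnp, the prion protein and like Cd24a a glycolipid-anchored antigen, fell to 17.8 ± 0.793 FPKM in PAD4-/- against 25.9 ± 0.619 FPKM in WT (SD, n = 4 each; adjusted p = 0.000180). Il2rg, the shared chain of several interleukin receptors, rose to 49.9 ± 1.4 FPKM in PAD4-/- against 38.6 ± 0.499 FPKM in WT (adjusted p = 0.000598). Pilra, an inhibitory receptor of myeloid cells, rose to a ratio of 1.82 and the integrin gene Itgax fell to 0.681 (adjusted p = 0.00130 for both). Whether the plain CD-numbered antigens differ from these as a group was not tested.

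In the authors' deposited table, 7 of the 16 antigens passed a q-value of 0.05, 1 higher and 6 lower. Over all 5674 genes tested here, the authors' deposited table had 20.4% past the same q-value, 9.89% higher and 10.6% lower. The authors' deposited table gave Cd52 a log2 fold change of 0.51, Cd24a -1.19, Cd109 -0.76 and Cd9 -0.24, the same 4 genes and directions as here. The other 3 in the authors' deposited table were Cd53 (-0.23, q = 0.00432), Cd300lb (-0.16, q = 0.0275) and Cd28 (-0.33, q = 0.0293). The authors' deposited table had a median log2 fold change of -0.15 over the antigens and 0.01 over all genes tested here, against -0.07 and 0.08 in the fit here.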

How the data were processed

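Each of the 8 libraries was made from total RNA with a BGISEQ protocol, per the labels' protocols. The authors used HISAT, Bowtie2 and RSEM with the GRCm38 build, per the submitters' processing notes; the sources used here give no versions, strand or settings. The deposited values are FPKM per gene, to 2 decimals, which keep no depth, so no counting interval is given. The same deposited table holds a log2 fold change and a q-value per gene from the authors, whose test no source used here names.

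Groups came from the sample titles. The test was limma (version 3.58.1, R 4.3.3), two-sided, applied to log2(FPKM + 1), its empirical Bayes step being robust and following the mean-variance trend, with Benjamini-Hochberg adjustment over 5674 genes with a mean of at least 1 FPKM; 613 were left out. It was tested on simulated data. No 2 libraries held identical values. Gene positions are from RefSeq (GRCm38.p6). Similar transcripts were stretches of at least 250 bases at 90% identity or more in GENCODE M21 (blastn 2.17.0).

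The members, the gene lists and the tests were chosen with earlier results of these data known. The text names every member, with values in every library for those called, the 5 most abundant, and Cd28, Cd48, Cd274 and Cd300lf, which were picked after their values were seen; listed genes are named where called, up to 4 per list by smallest adjusted p, and others beside a member. Under an alternative, a sign change of an antigen called in neither fit was counted as no move.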

Additional observations from a re-analysis of the deposited data

How the results depend on the processing

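The number of antigens higher, 1 of 16, was 2 with libraries rescaled to the same total and 2 with library weights, and ran from 1 to 2 when 1 library was left out. The number lower, 3, was 1 with a minimum mean of 5 FPKM, which removes Cd24a and Cd109 from the test, 5 with median-of-ratios scaling and 8 with library weights, and ran from 1 to 5 when 1 library was left out. The causes of the scaling and weighting differences were not tested. Library weights called Cd53, Cd180, Cd300lb, Cd28 and Cd300lf lower and Cd48 higher in addition. The other alternatives, among them pseudocounts of 0.1 and 0.5, no minimum, quantile normalization and other empirical Bayes settings, gave 1 higher and 3 lower, or 2 lower with the replicate block. Over 20 alternatives and 16 antigens, 292 of 317 single results kept their side of the threshold, 12 lost a call and 13 gained one. None of the called antigens turned direction. Same-numbered libraries did not deviate together (correlations of -0.03, -0.14, -0.06 and -0.06 for numbers 1 to 4), so the numbers were not taken as pairs. With the replicate block Cd9 was no longer called (adjusted p = 0.0592), and the tetraspanins with other symbols had 2 lower, against 5. The depth is unknown, so the precision at 3.5 FPKM rests on the spread of 4 libraries. Library weights also gave 32 higher among the CD antigens under other symbols, against 19, and 2229 higher and 746 lower among all genes, against 1195 and 375.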

Other observations

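Siglece, an inhibitory sialic acid receptor of myeloid cells, lay below the minimum of 1 FPKM on average but was listed at 0.79, 0.86, 2.12 and 1.58 FPKM in PAD4-/- replicates 1 to 4, against 0.41, 0.21, 0.21 and 0.39 FPKM in WT. It was picked after its values were seen and was not tested.

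The Cd28 level of 100.9 FPKM placed this T cell co-stimulatory gene at rank 552 of 5674 genes, above Cd47 at rank 1134 and Cd274 at rank 742, in cultures labelled as macrophages.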
